A study of Mus musculus with 7 samples.

Results

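Platelet and megakaryocyte genes were examined in an erythroid precursor line by following 10 named genes, Gp9, Gp5, Gp6, Itga2b, Itgb3, Pf4, Plek, Vwf, Treml1 and Nrgn, among the 22180 genes measured. The 10 were taken by symbol from array rows annotated with exactly 1 gene, and each of the 10 had 1 such probeset, the set of probes that reads a transcript. G1E, the line used, was derived from mouse embryonic stem cells that lack functional GATA1, and it grows as immature erythroid precursors. The control group was G1E cells with the Lockd locus intact (Lockd WT), on 3 arrays, and the knockout group was G1E cells in which CRISPR/Cas9 had deleted Lockd, on 4 arrays. Both groups were grown in G1E medium, and all carried the GATA1-deficient background of the line. The series describes the cells as clones, but the labels used here do not say which clone each array came from or whether replicates were separate cultures, so p-values measure only the spread between these arrays, which may be technical in part. Expression is given as log2 values after RMA, so a difference of 1 is a doubling.

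Megakaryocytes are the bone marrow cells that shed platelets, and they arise from a precursor shared with the erythroid lineage. As platelets form, the cells make surface receptors for the vessel wall, the fibrinogen receptor, granule proteins and the signalling proteins that release the granules. GATA1 acts in both lineages, and loss of its function blocks the maturation of each. The comparison addresses whether the megakaryocyte genes read by these arrays differed once Lockd was deleted, a gene of a long non-coding RNA that neighbours Cdkn1b.

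The identity of the groups was checked on Lockd, which read 7.89, 8.04 and 7.80 on control arrays and 5.09, 5.15, 4.17 and 5.15 on knockout arrays. All 7 arrays correlated at 0.993 to 0.996 over the 23521 tested probesets, and control replicate 2 lay apart on the first principal component, which carried 29.9% of the variance. The signal expected from a gene that is not transcribed was gauged from the 1105 olfactory receptor genes on the array, which had a median of 3.39 and a 95th percentile of 5.53. Of all genes, 53.7% lay above that 95th percentile. Of 22 measured erythroid markers, 19 lay above it, the brightest being the carbonic anhydrase genes Car2 and Car1 and the transcription factor gene Gfi1b. Of markers of other blood and vessel cells, 5 of 17 mast cell and basophil genes, 3 of 16 myeloid genes, 0 of 11 lymphoid genes and 3 of 11 endothelial genes, a list that shares Vwf, lay above it.

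The 10 megakaryocyte genes ranged from very bright to dim. Plek had a mean of 11.45 over the 7 arrays, brighter than 97.8% of tested probesets. Gp9 at 7.92, Gp5 at 7.59, Nrgn at 7.32, Itga2b at 6.73 and Treml1 at 6.12 also lay above the median tested probeset, 5.69. Itgb3 at 5.48, Vwf at 5.39, Gp6 at 4.85 and Pf4 at 4.65 lay below it, and these 4 were also below the olfactory receptor 95th percentile. Probesets differ in how well they bind their target, so these ranks describe probeset signal and do not order transcript amounts, and RMA values carry no detection call.

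**Figure D1:**
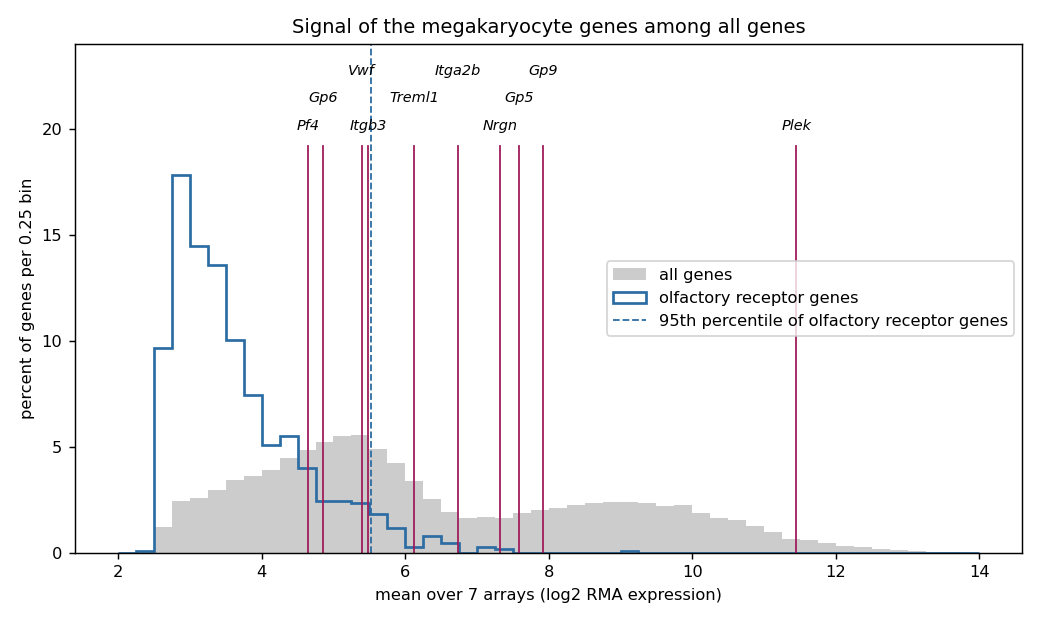
Distribution of the mean log2 RMA expression over 7 arrays for all genes (grey bars) and for olfactory receptor genes (blue outline), with the 10 megakaryocyte genes as vertical lines and the 95th percentile of the olfactory receptor genes, 5.53, dashed. Plek, at 11.45, stands in the bright tail, 5 genes lie between 6.12 and 7.92, and Itgb3, Vwf, Gp6 and Pf4 lie left of the dashed line.

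Gp9 and Gp5 encode subunits of the glycoprotein Ib-IX-V complex, the platelet receptor for von Willebrand factor. Their promoters are shown with those of Gp6 and Pf4, which were dim, so that bright and dim members can be read side by side. Each line gives the 250 bases before the transcript start from RefSeq in the build GRCm38.p6, read 5′ to 3′ on the strand of the gene. Capitals mark matches on either strand to the GATA motif, or to the ETS family motif. The GATA motif was searched in 4 spellings. One was AGATAA and another AGATAG. The others began with T in place of A, as TGATAA, and as TGATAG. The ETS motif was searched as AGGAAG and, with C at its start, as CGGAAG.
Gp9, chr6:87777820-87778069, plus strand: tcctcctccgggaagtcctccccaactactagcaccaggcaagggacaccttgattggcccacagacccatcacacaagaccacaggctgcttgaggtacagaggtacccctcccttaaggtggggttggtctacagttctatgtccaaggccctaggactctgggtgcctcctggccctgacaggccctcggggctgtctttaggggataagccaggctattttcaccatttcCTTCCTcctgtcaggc
Gp5, chr16:30310782-30311031, minus strand: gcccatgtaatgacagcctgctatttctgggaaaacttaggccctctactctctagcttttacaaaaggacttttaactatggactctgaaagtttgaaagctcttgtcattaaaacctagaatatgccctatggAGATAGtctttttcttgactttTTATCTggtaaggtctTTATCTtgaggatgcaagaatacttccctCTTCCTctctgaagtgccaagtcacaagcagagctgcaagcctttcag
Gp6, chr7:4397745-4397994, minus strand: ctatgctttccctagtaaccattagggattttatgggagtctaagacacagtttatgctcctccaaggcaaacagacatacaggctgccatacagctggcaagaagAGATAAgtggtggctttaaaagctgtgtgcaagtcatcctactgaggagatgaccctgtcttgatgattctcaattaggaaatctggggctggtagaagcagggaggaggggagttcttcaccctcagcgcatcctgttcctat
Pf4, chr5:90772185-90772434, plus strand: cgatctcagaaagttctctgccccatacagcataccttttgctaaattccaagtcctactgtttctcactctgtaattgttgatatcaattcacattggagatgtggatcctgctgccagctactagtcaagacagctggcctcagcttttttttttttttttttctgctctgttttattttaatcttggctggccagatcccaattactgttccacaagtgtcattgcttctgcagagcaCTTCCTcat

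Gp5 held 3 GATA matches and 1 ETS match in this window, Gp9 and Pf4 each held 1 ETS match near the start, and Gp6 held 1 GATA match. RefSeq promoters were at hand for 8 of the 10 genes, all but Itgb3 and Vwf. A GATA match was found in 2 of the 8, an ETS match in 4 and both in 1, which was Gp5. Itga2b had 2 ETS matches, and Plek, Nrgn and Treml1 had no match to any of the spellings searched. Other forms of either motif were not searched. Over all 32851 promoter windows of the same length, 26.5% held a GATA match, 39.2% an ETS match and 9.21% both. No spelling was shared between the GATA and ETS motifs, and a match is a string of letters, not a site shown to be bound.

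Gp9 was lower on every knockout array than on any control array. It read 8.22, 8.03 and 8.07 on control replicates 1 to 3 and 7.70, 7.97, 7.87 and 7.56 on knockout replicates 1 to 4. Control arrays averaged 8.11 ± 0.10 (SD, n = 3) and knockout arrays 7.78 ± 0.18 (SD, n = 4). The difference, knockout minus control, was -0.33 (SE 0.11, 95% interval -0.58 to -0.09), an expression 20.6% lower. It did not pass the test across all probesets, where limma's adjusted p was 0.999 and its unadjusted p 0.0134. The exact two-sided permutation test over the 35 splits of the arrays, counted by size, gave p = 0.0571, where the smallest it allows is 0.0286.

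Gp5, in the same receptor complex, scattered widely, and its difference had the opposite sign to that of Gp9 with an interval that spanned 0. It read 7.81, 7.08 and 7.33 on control arrays and 7.62, 7.99, 6.93 and 8.37 on knockout arrays. The knockout arrays held both the lowest and the highest of the 7 values, so the groups overlapped throughout. Control arrays averaged 7.41 ± 0.37 (SD, n = 3) and knockout arrays 7.73 ± 0.62 (SD, n = 4), and the difference was 0.32 (SE 0.32, 95% interval -0.40 to 1.05, unadjusted limma p 0.338). It was 0.11 without knockout replicate 4 and 0.59 without knockout replicate 3. On knockout replicate 4 Gp9 was at its lowest and Gp5 at its highest, while the control arrays ran in the same order for both genes.

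Gp6 encodes the collagen receptor of platelets, glycoprotein VI. It read 5.15, 4.42 and 4.59 on control arrays and 4.98, 4.83, 4.85 and 5.15 on knockout arrays. Control replicate 1 was level with the highest knockout array, and the other control arrays lay below all knockout arrays. The difference was 0.23 (SE 0.17, 95% interval -0.15 to 0.61). With control replicate 1 left out it was 0.45, with an unadjusted limma p of 0.00438 that did not pass after adjustment, and without control replicate 2 it was 0.08.

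Itga2b and Itgb3 encode the αIIb and β3 chains of the platelet fibrinogen receptor, known as CD41 and CD61. Itga2b read 7.09, 6.61 and 6.36 on control arrays and 6.85, 6.41, 6.91 and 6.87 on knockout arrays. Control replicates 1 and 3 were the extremes, and 3 of the 4 knockout arrays lay close together with replicate 2 below them. Its difference was 0.07 (SE 0.18, 95% interval -0.35 to 0.49), and it turned to -0.09 without control replicate 3.

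Itgb3 was dim and steady. It read 5.49, 5.60 and 5.65 on control arrays and 5.55, 5.44, 5.33 and 5.29 on knockout arrays. Only knockout replicate 1 reached into the control range, just above control replicate 1. The difference was -0.18 (SE 0.08, 95% interval -0.36 to 0.01, unadjusted limma p 0.0617). The probeset of its partner chain was more variable, with a pooled within-group SD of 0.30 for Itga2b and 0.10 for Itgb3.

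Pf4 encodes platelet factor 4, a chemokine stored in the α-granules of megakaryocytes. It read 4.65, 4.69 and 4.65 on control arrays and 4.69, 4.69, 4.60 and 4.58 on knockout arrays, a span of 0.11 over all 7. Its difference of -0.02 had the narrowest interval of the 10 genes, -0.17 to 0.12. At this signal, within the range of olfactory receptor genes, a change in a weak transcript may not be visible.

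Vwf encodes von Willebrand factor, which megakaryocytes and endothelial cells make. It read 5.36, 5.27 and 5.41 on control arrays and 5.53, 5.38, 5.37 and 5.42 on knockout arrays. The groups overlapped, and the difference was 0.08 (SE 0.07, 95% interval -0.08 to 0.24). Of the 11 endothelial markers, Eng, Flt1 and Tie1 lay above the olfactory receptor 95th percentile and the other 8, Vwf included, below it. The mean over the 11 endothelial genes was 5.19 to 5.43 on the control side and 5.28 to 5.41 on the knockout side.

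Treml1 encodes TLT-1, a receptor held in platelet α-granules. It read 5.85, 5.80 and 6.25 on control arrays and 6.31, 6.28, 6.25 and 6.11 on knockout arrays. Control replicates 1 and 2 lay below all knockout arrays, while control replicate 3 lay among them. Control arrays averaged 5.97 ± 0.25 (SD, n = 3) and knockout arrays 6.24 ± 0.09 (SD, n = 4), and the difference was 0.27 (SE 0.12, 95% interval 0.00 to 0.54). In limma p was 0.0470 before adjustment and 0.999 after it. Without control replicate 3 the difference was 0.42 and without control replicate 2 it was 0.19.

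Plek encodes pleckstrin, a protein kinase C substrate abundant in platelets and also made by other blood cells. It read 11.82, 11.18 and 11.35 on control arrays and 11.35, 11.50, 11.38 and 11.57 on knockout arrays. All knockout arrays fell within the control range. Both groups averaged 11.45, with control arrays at 11.45 ± 0.33 (SD, n = 3) and knockout arrays at 11.45 ± 0.10 (SD, n = 4), and the 95% interval of the difference ran from -0.33 to 0.32. Its direction changed with the control array left out, being 0.18 when control replicate 1 was left out and -0.14 when control replicate 2 was.

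Nrgn encodes neurogranin, a calmodulin-binding protein best known from neurons and also found in platelets. It read 7.30, 8.86 and 7.05 on control arrays and 7.10, 7.59, 6.97 and 6.35 on knockout arrays. Control replicate 2 stood far above every other array, and the other control arrays lay inside the knockout range. Control arrays averaged 7.74 ± 0.98 (SD, n = 3) and knockout arrays 7.002 ± 0.51 (SD, n = 4). The difference of -0.73 was the largest of the 10, but its 95% interval ran from -1.73 to 0.26 (unadjusted limma p 0.128), and without control replicate 2 the difference was -0.17.

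**Figure D2:**
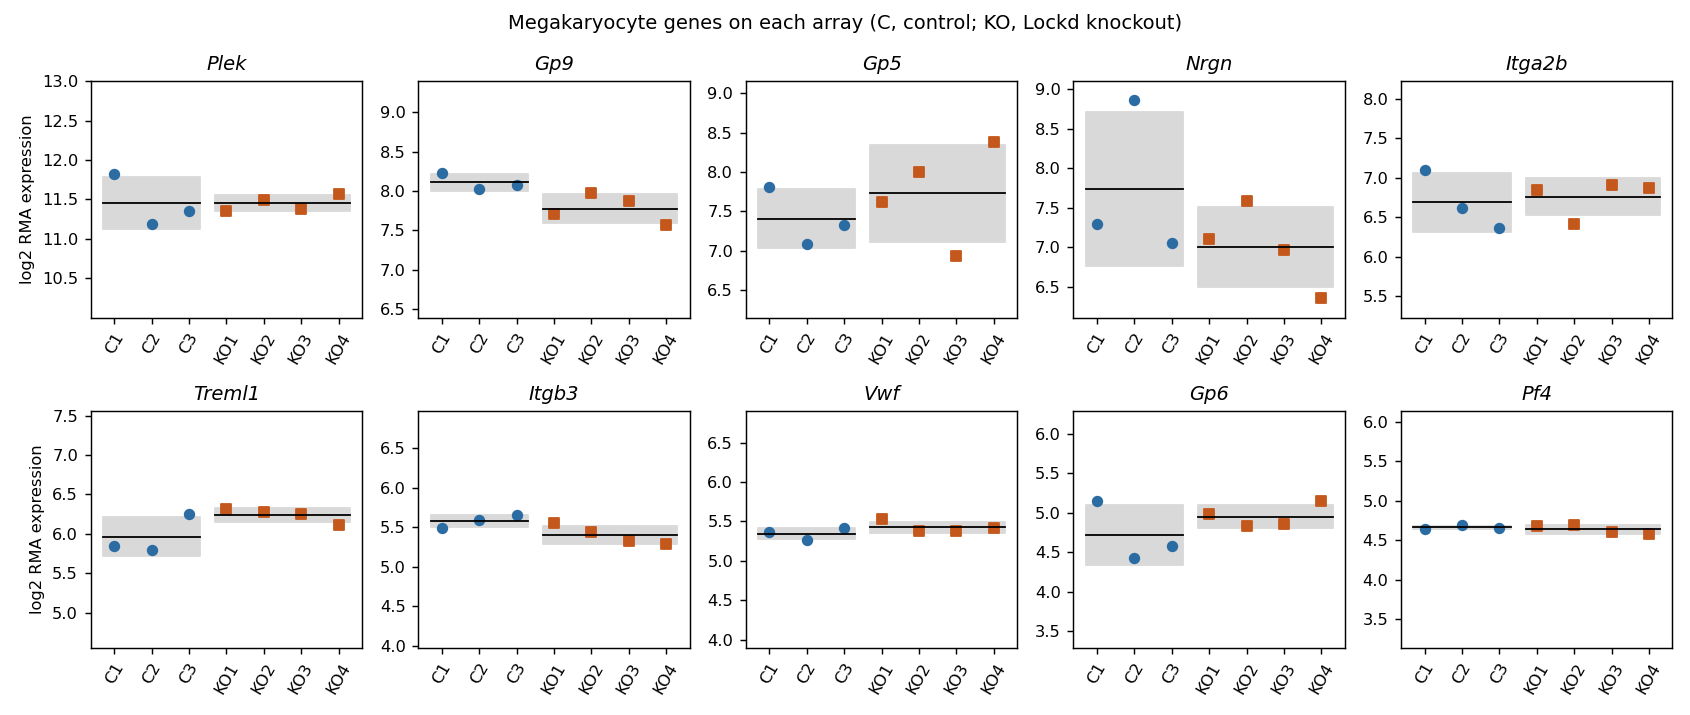
Log2 RMA expression of each megakaryocyte gene on the 3 control (C1 to C3, blue circles) and 4 Lockd knockout arrays (KO1 to KO4, orange squares), with the group mean as a line and ± 1 SD as a grey band; every panel spans 3 log2 units. Gp9 is the gene whose groups are apart, and the C2 array of Nrgn, at 8.86, is far from the other 6.

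Over the 10 genes, 5 were higher and 5 lower in knockout cells, with a median difference of 0.04 beside 0.01 over all tested probesets. The limma fit covered 23521 probesets, with p-values adjusted after Benjamini and Hochberg. By the adjusted p, 0 of the 10 genes passed 0.05, where 0.0085% of all tested probesets did. Before adjustment 2 of the 10 lay under 0.05, where 4.64% of all did. These were Gp9 on the lower side, where 2.37% of all probesets lay, and Treml1 on the higher side, where 2.27% did. The exact permutation test gave p = 0.143 for Treml1, counted by size. The groups did not overlap for 1 of the 10, Gp9, where 5.15% of tested probesets did not overlap, 2.5% with knockout arrays lower and 2.65% with them higher. The genes under 0.05 before adjustment changed with the arrays used. Only Gp9 lay there without control replicate 2 (5.14% of all probesets) or knockout replicate 2 (4.59%). Without control replicate 3 they were Gp9, Treml1 and Nrgn, where the share of all probesets rose to 7.28%. Without control replicate 1 they were Gp6 and Itgb3 (4.85% of all probesets), and Gp9 had an unadjusted limma p of 0.0557. Leaving out knockout replicate 1 gave Gp9 and Itgb3 (3.75%), and leaving out knockout replicate 3 gave Gp9 and Gp5 (4.29%). Gp9 and Treml1 remained when knockout replicate 4 was left out (3.66%). Groups that did not overlap numbered 3 without control replicate 1 or control replicate 3, where 2829 and 3555 of the 23521 tested probesets did not overlap, and 2 without knockout replicate 1, where 8.46% did not. For 6 of the 10 the difference was smaller than the pooled within-group SD, with Nrgn just under that bar at 0.999 of its SD. The share of all tested probesets under the bar was not computed, so the count does not show that these differences were unusually small.

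**Figure D3:**
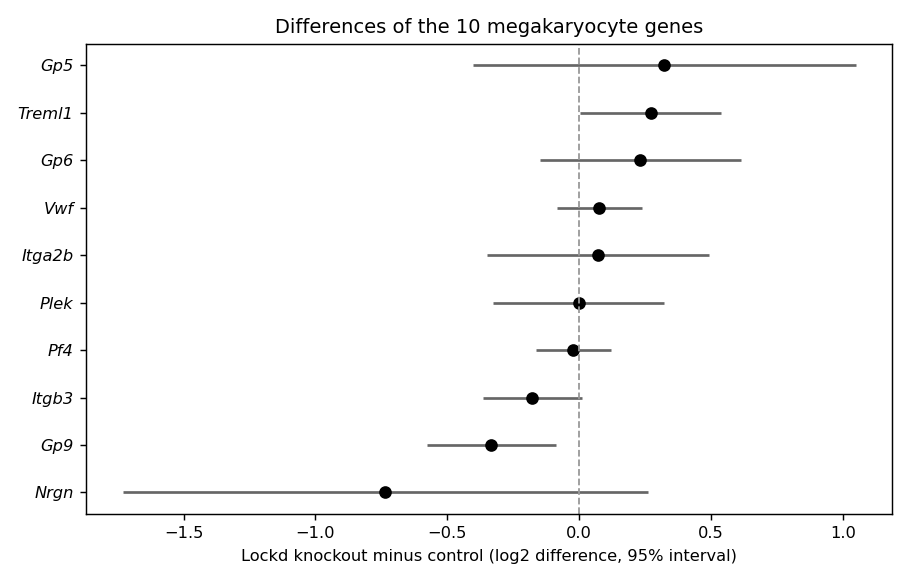
Difference of each megakaryocyte gene, Lockd knockout minus control in log2 units, as a point with its 95% interval from limma, before adjustment for the number of probesets tested. The intervals of Gp9 and Treml1 exclude 0, and that of Nrgn, from -1.73 to 0.26, is the widest.

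The 10 genes differed widely in their spread between arrays of the same group. The pooled within-group SD ran from 0.05 for Pf4 to 0.73 for Nrgn, with a median of 0.20 beside 0.13 over all tested probesets. Nrgn and Gp5 were more variable than 99.8% and 99.4% of tested probesets, Itga2b than 96.0% and Gp6 than 93.7%. Plek, although its SD was 0.22, was more variable than 98.9% of probesets of the same decile of level, since bright probesets usually vary little. At the other end, Pf4 was more variable than 0.638% of the probesets in its decile of level and Vwf than 5.27%. The SD was wider among control than knockout arrays for 6 of the 10. Within the control group, replicate 1 was the highest array for 5 genes and replicate 2 the lowest for 6, and Plek, Gp9, Gp5 and Gp6 shared the same order, replicate 1 above 3 above 2. Knockout replicate 4 was the lowest knockout array for 5 genes and the highest for 3.

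**Figure D4:**
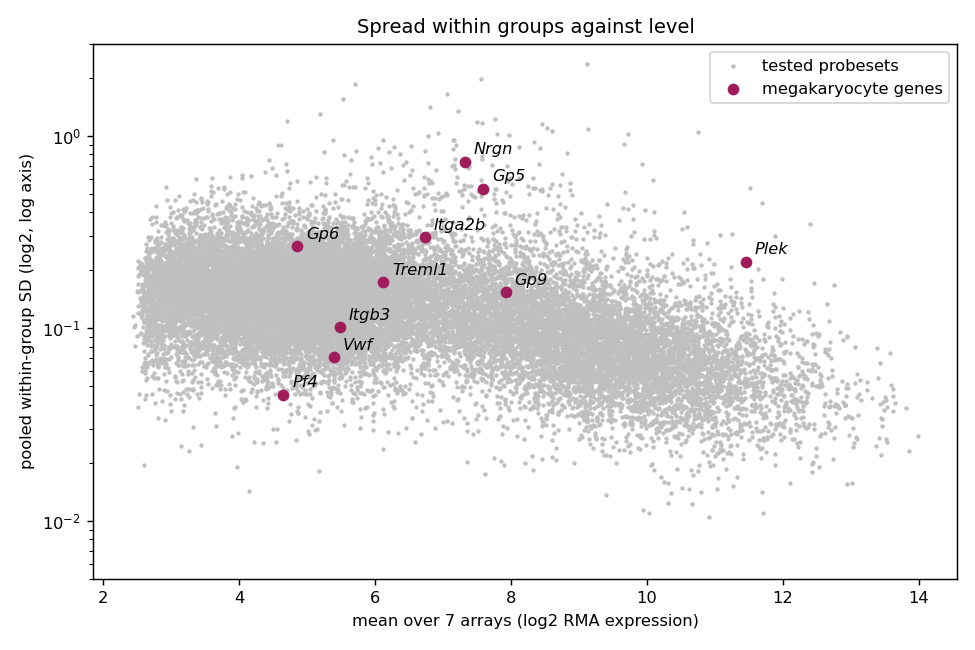
Pooled within-group SD (log2, on a log axis) against mean log2 RMA expression over 7 arrays for all tested probesets (grey) and the 10 megakaryocyte genes (purple). Nrgn at 0.73 and Gp5 at 0.53 lie near the upper edge of the cloud, Plek lies high for its level, and Pf4 at 0.05 lies near the lower edge.

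Markers of other cell types differed between the same arrays. The mean over the 17 mast cell and basophil genes was 5.72, 5.31 and 5.79 on control replicates 1 to 3 and 5.40, 5.42, 5.33 and 5.23 on knockout replicates 1 to 4. Control replicate 2, where Nrgn was highest and Plek, Gp9, Gp5, Gp6, Treml1 and Vwf were at their lowest among control arrays, was also the control array with the lowest mast cell mean. The mast cell genes did not move as one there, with 7 of the 17 lowest and 5 highest of the control arrays on that array. Control replicate 3, which had the highest mast cell mean, had the same counts, 7 lowest and 5 highest. Cpa3, a mast cell protease gene, read 9.53 on control replicate 2, against 11.97 and 11.95 on the other control arrays. Ms4a2, of the same list, read 7.55 there, against 9.67 and 9.99. Of the 17 genes, 13 were lower in knockout cells, where 10592 of all 22180 genes were lower. Only 5 of the 17 lay above the olfactory receptor 95th percentile, so most of these directions were read at dim signal. Tph1, a tryptophan hydroxylase gene, read 9.35 to 10.39 in control and 7.25 to 8.37 in knockout cells, with a limma adjusted p of 0.516. The erythroid marker mean was 9.31, 9.42 and 9.35 on control arrays and 9.18 to 9.46 on knockout arrays. Of the 22 erythroid markers, 14 were lower and 8 higher in knockout cells, and 0 passed limma's adjusted p of 0.05. Before adjustment 3 lay under 0.05, all on the lower side, where 2.37% of all probesets lay. They were Add2 at -0.44, Kel at -0.32 and Tfrc at -0.17. The part of these markers in the values of the megakaryocyte genes was not tested.

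Nrgn had the widest within-group spread, so the genes with the most similar profile over the 7 arrays were looked up. Likeness was the root mean square difference between the values of each gene after its own mean was subtracted. Nrgn itself varied by a root mean square of 0.72 around its mean. The nearest were Scd1, a stearoyl-CoA desaturase gene, at 0.30, Ptpru, a receptor tyrosine phosphatase gene, at 0.33, and the olfactory receptor genes Olfr437 at 0.33, Olfr342 at 0.37 and Olfr141 at 0.38. All 5 were highest on control replicate 2, where Scd1 read 8.83 and Ptpru 8.90. The ranking rests in large part on that array.

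The wider platelet and megakaryocyte genes were compared in the same fit. Across 6 further lists, 111 genes were measured, of which 67 were lower and 44 higher in knockout cells, where 10592 of all 22180 genes were lower, with a median difference of -0.02. By limma's adjusted p 0 passed 0.05. Before adjustment 3 lay under 0.05, or 2.70% of the 111, beside 4.64% of all tested probesets. These 3 were Stat3, at -0.42 (SE 0.15), the platelet-derived growth factor gene Pdgfa, at 0.25 (SE 0.09), and Lmo2, a haematopoietic transcription cofactor gene, at 0.31 (SE 0.13).

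Of the transcription factors that act in megakaryocytes, 19 of 23 lay above the olfactory receptor 95th percentile. Gata2 read 12.37 to 12.53 on control and 12.37 to 12.47 on knockout arrays, and Gfi1b read 12.33 to 12.58 and 12.42 to 12.46. The Gata1 probeset, named after its values were seen, read 9.10 to 9.26 on control and 9.19 to 9.41 on knockout arrays, a transcript signal that says nothing of functional protein. Fli1, an ETS factor of the megakaryocyte lineage also named after its values were seen, was dim at 5.18 to 5.42 and 5.35 to 5.62. Erg, another ETS factor gene, scattered between 6.87 and 8.41 in control cells and between 6.08 and 7.49 in knockout cells, a difference of -0.75 (SE 0.42) that did not pass.

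Surface receptors of platelets beyond the 10 were dim in the main, with 7 of 17 above the olfactory receptor 95th percentile. The bright ones were the broadly expressed Cd47, Itgb1 and Cd151, and the differences of the list ran from -0.12 to 0.16. Gp1ba and Gp1bb, the remaining subunits of the complex of Gp9 and Gp5, were not analysed here. Granule cargo and biogenesis genes had 11 of 22 above it, with the secretion gene Vps33b and Tgfb1 brightest. Ppbp, stored beside Pf4 in α-granules and named after its values were seen, read 4.23 to 4.46 on control and 4.29 to 4.57 on knockout arrays.

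Cytoskeletal genes had 12 of 15 above that level, with Wdr1, Vcl and Tln1 brightest, and signalling genes and agonist receptors 14 of 23. Rgs18, a regulator of G protein signalling found in platelets, had a difference of -0.41 (SE 0.23, unadjusted limma p 0.110). Its control arrays read 7.71 to 8.83 and its knockout arrays 7.76 to 8.08. For Lcp2, the SLP-76 adaptor gene, the difference was -0.38 (SE 0.35, unadjusted limma p 0.306). Its control arrays read 9.63 to 10.76 and its knockout arrays 9.22 to 10.43, so the groups overlapped for both genes. In the list of growth factor signalling genes 10 of 11 lay above it, and Jak2, a cytokine receptor kinase gene, was steady at 10.39 to 10.45 on all 7 arrays. Stat5a, a transcription factor gene of cytokine signalling, had a difference of -0.42 (SE 0.19, unadjusted limma p 0.0518), with overlapping groups.

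**Figure D5:**
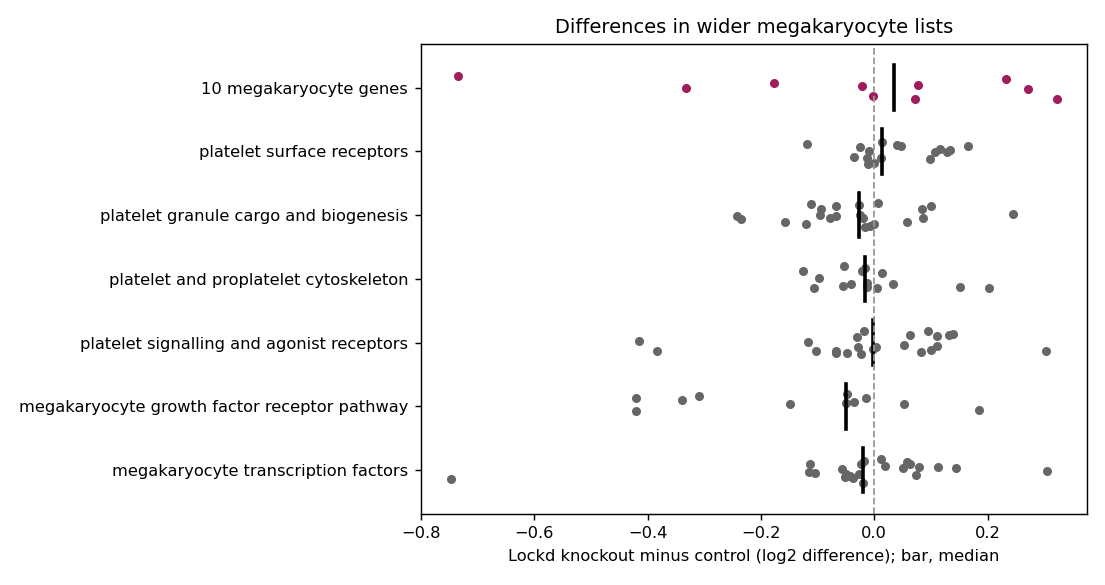
Log2 differences, Lockd knockout minus control, of the 10 megakaryocyte genes (purple) and of the genes in 6 wider lists (grey), 1 point per gene with the list median as a bar; vertical scatter within a list has no meaning. The list medians lie between -0.05 and 0.04, and Nrgn and Erg are the points farthest to the left.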

How the data were processed

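Total RNA of 7 G1E samples was amplified, copied into cDNA, labelled with biotin and hybridised to Affymetrix Mouse Gene 2.0 ST arrays, per the labels' protocols. The deposited log2 values were made by the authors by RMA, and the software named in the submitters' processing notes is Affymetrix Expression Console. RMA corrects background, sets arrays to a common distribution and summarises each probeset, which can compress differences at dim probesets. The sources used here do not give the software version, library files or genome build. The number of arrays limits the precision.

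Of 41345 probesets, 23521 had exactly 1 symbol in the platform annotation and were tested, 1814 had several and 16010 were unlisted. A gene with several probesets was represented by the one with the highest mean. Groups and replicate numbers came from sample titles. Differences were tested with limma 3.58.1 in R 4.3.3 (lmFit, eBayes, both groups in 1 fit, no covariate, two-sided). P-values were adjusted by the method of Benjamini and Hochberg over all 23521, with a threshold of 0.05 and 95% intervals. The fit was tried on simulated data whose noise was independent between arrays. That does not show how the fit behaves when an array lies apart, as control replicate 2 did here. The 10 genes and the lists were chosen with earlier results of these data known. Besides the 10 and Lockd, the naming rule took the 3 smallest p-values and the 3 highest means of each list and the 5 genes most like the most variable member. Not every gene that the rule took is described in the text. Promoters came from RefSeq tables in GRCm38.p6. The alternatives were the features tested, 2 filters on dim probesets, 2 variance models, array weights, 2 scalings, 2 pairings and each array left out. Same-numbered arrays of the 2 groups did not deviate together: correlations of deviations from the group means were 0.02, 0.06 and -0.10 by title number and -0.17 and -0.10 by description number.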

Additional observations from a re-analysis of the deposited data

Results flagged for a closer look

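Itga2b on knockout replicate 2, at 6.41, lay far below the other 3 knockout arrays, which read 6.85 to 6.91. Its gap to the nearest of them was 0.875 of the range of the group, above Dixon's critical value at 95% for 4 samples. This was the only such case among the 10 genes on the knockout arrays, and chance flags about 1 in 20 groups. Control replicate 3 read 6.36, lower still, and the Itga2b difference without knockout replicate 2 was 0.19. Groups of 3 arrays, such as the control group, were not checked in this way.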

How the results depend on the processing

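Under all 17 alternatives 0 of the 10 genes passed an adjusted p of 0.05, and the lowest adjusted p was 0.471. Adjusted p-values ranged from 0.676 to 1 for Gp9 and from 0.471 to 1 for Treml1. At an unadjusted p under 0.05 the count was 1, Gp9, with all 41345 probesets tested (4.39% of them). It was 1, Treml1, with the replicate block by title numbers (3.78%), where Gp9 had an unadjusted limma p of 0.0654. When an array was left out the count was 1 to 3, beside 3.66% to 7.28% of all probesets. Treml1 was above 0.05 when any array was left out other than control replicate 3 or knockout replicate 4. The replicate block by description numbers gave 2, Gp5 and Gp6 (2.19% of all probesets), and a repeated quantile normalization gave 2, Gp9 and Itgb3 (4.94%). Neither set of numbers is shown to pair the arrays. Groups that did not overlap numbered 2 with arrays centred on their medians (4.35% of all probesets) and 2 with a repeated quantile normalization (5.35%). They numbered 1 to 3 when an array was left out, where 8.05% to 15.1% of all probesets did not overlap. Directions changed for 3 genes near 0. Itga2b was -0.0195 with array weights and ran from -0.0936 to 0.275 when an array was left out. Plek was 0.16 with the block by description numbers and ran from -0.14 to 0.18 when an array was left out. Pf4 was 0.0176 with the block by description numbers. The other 7 kept their direction in all alternatives that tested them. The median difference ran from -0.04 to 0.13 when an array was left out. The filter on values over 5 on 3 arrays left 8 of the 10 and the filter on the median left 6. Other probesets of the genes could not be tried, since each had 1. At the 4 dim genes the signal over background limits what can be seen.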
